A study of Mus musculus with 6 samples.

Results

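The transcripts of 10 core circadian clock genes were followed in bone marrow neutrophils of mice with and without a myeloid deletion of LRP5, a cell surface receptor of the LDL receptor family. The genes were the activators Arntl (BMAL1) and Clock, the repressors Per1, Per2, Cry1 and Cry2, the nuclear receptors Nr1d1 and Nr1d2 (REV-ERBα and REV-ERBβ), and the transcription factors Dbp and Tef. They were taken by symbol from the 52636 genes of the deposited expression table, and each was found once. RNA of primary neutrophils was sequenced in 6 libraries from C57BL/6N mice, all aged 10 weeks. The 3 WT libraries came from mice of WT genotype, and the 3 LRP5-null libraries from LRP5f/f/Lyz2Cre+ mice, in which floxed Lrp5 is cut by a Cre recombinase expressed from the Lyz2 locus, and so in neutrophils, monocytes and macrophages alike. The mice were kept on a cycle of light and darkness, and neither the labels nor the methods gave the hour at which marrow was taken. A difference in the hour of collection and the genotype therefore cannot be told apart here, and whether the hour differed between the groups was not tested.

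The circadian clock is a feedback loop that runs in nearly every cell with a period of about a day. BMAL1 and CLOCK bind E-boxes in DNA and switch on the Per and Cry genes, and the PER and CRY proteins return to the nucleus and shut BMAL1 and CLOCK down. BMAL1 and CLOCK also drive Nr1d1 and Nr1d2, whose products repress Arntl, and the factors Dbp and Tef, which act at D-boxes. In most tissues Dbp and Nr1d1 peak by day and Arntl by night, with Per and Cry transcripts following. Per1 is also induced directly by glucocorticoids and by cyclic AMP, and neutrophils are known to change their surface receptors and their release from marrow over the day.

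Promoter sequence from RefSeq on build GRCm38.p6 was not at hand for Per2, which was therefore not searched. It was at hand for the other 9 of the 10 genes, in 14 windows of the 250 bases before each start site. Those of Per1, the gene with the smallest p, and of Cry1 and Cry2, repressors of the same arm, are shown from 5′ to 3′ on the coding strand, with matches to clock motifs in capitals. The motifs searched on both strands were the E-box CACGTG, the E′-box CACGTT, the D-boxes TTATGTAA and TTACGTAA, and AGGTCA, the core site of REV-ERB and ROR receptors.
Per1 (chr11:69098699-69098948, plus strand): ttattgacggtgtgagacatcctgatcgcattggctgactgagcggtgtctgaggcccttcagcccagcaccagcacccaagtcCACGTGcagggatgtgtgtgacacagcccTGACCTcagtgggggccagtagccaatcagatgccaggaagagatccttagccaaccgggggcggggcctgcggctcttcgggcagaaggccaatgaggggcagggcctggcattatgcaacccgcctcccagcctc
Cry1 (chr10:85185055-85185304, minus strand): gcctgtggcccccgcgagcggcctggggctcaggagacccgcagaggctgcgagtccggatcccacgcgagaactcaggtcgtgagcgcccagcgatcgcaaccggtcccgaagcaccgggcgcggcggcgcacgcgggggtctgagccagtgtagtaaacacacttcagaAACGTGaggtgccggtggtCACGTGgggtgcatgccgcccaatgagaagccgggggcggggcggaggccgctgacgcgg
Cry2 (chr2:92434070-92434319, minus strand): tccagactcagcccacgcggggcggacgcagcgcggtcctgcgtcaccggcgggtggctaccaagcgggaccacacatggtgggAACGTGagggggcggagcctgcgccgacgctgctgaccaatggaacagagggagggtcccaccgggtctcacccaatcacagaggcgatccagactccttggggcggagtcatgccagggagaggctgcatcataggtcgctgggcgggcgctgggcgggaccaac
The Per1 window held an E-box 166 bases before the start and a core receptor site 137 bases before it, and a second Per1 window further downstream held no match. Cry1 held an E-box at 60 bases and an E′-box at 79 bases, and Cry2 an E′-box at 166 bases. An E-box was in 4 of the 14 windows (those of Per1, Cry1 and Tef), against 6.02% of all 32851 mouse windows of this length. E′-boxes were in 3 windows (Cry1, Cry2 and Nr1d1), against 3.85% of all windows, and core receptor sites in 3 (Per1, Nr1d2 and Clock), against 14% of all windows. No D-box was matched in these windows, and 0.819% and 0.113% of all windows held either form. Matches are letters in a window and say nothing of binding in these cells.

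Lrp5 itself did not fall under its LRP5-null label. It was at 1.68, 1.77 and 2.07 TPM there against 1.12, 1.31 and 1.42 TPM in WT, although a level over the whole transcript need not show a deletion of part of it. Lyz2, the gene that carries Cre in these mice, fell by 0.91 on the log2 scale (adjusted p = 0.00351 from limma). LRP5-null libraries are those so labelled throughout, and all directions given for them rest on the labels. The libraries held 249841492 to 340580330 reads, and TPM keeps no counts, so the counting error of single genes is unknown.

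Per1 and Per2 were at 1.54 and 1.43 times the WT mean in the LRP5-null libraries, each with groups that did not overlap, and both missed the threshold after adjustment. Cry1, Dbp, Arntl, Clock, Nr1d1, Nr1d2 and Tef had overlapping groups. Abundance was deposited as TPM (a share of all transcripts of a library, corrected for length), and the difference was tested with limma on log2(TPM + 1), a scale that understates the change of low genes, over the 9775 genes whose mean reached 1 TPM. Of the 10 clock genes, 5 passed that filter (Per1, Per2, Cry1, Cry2 and Dbp) and 0 reached an adjusted p under 0.05, a threshold that 0.532% of all genes tested passed (52 genes, 26 higher and 26 lower). At an unadjusted p under 0.05, 2 of the 5 were called, Per1 and Per2, both higher, where 23.5% of all genes were. In 3 of the 5 (Per1, Per2 and Cry2) every LRP5-null library was above every WT library, against 17.4% of all genes. The median log2 fold change of the 5 was 0.25, and that of all genes tested 0.04. These are sums over all cells of a sample, in which fewer cells of a type and less RNA per cell cannot be told apart.

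**Figure D1:**
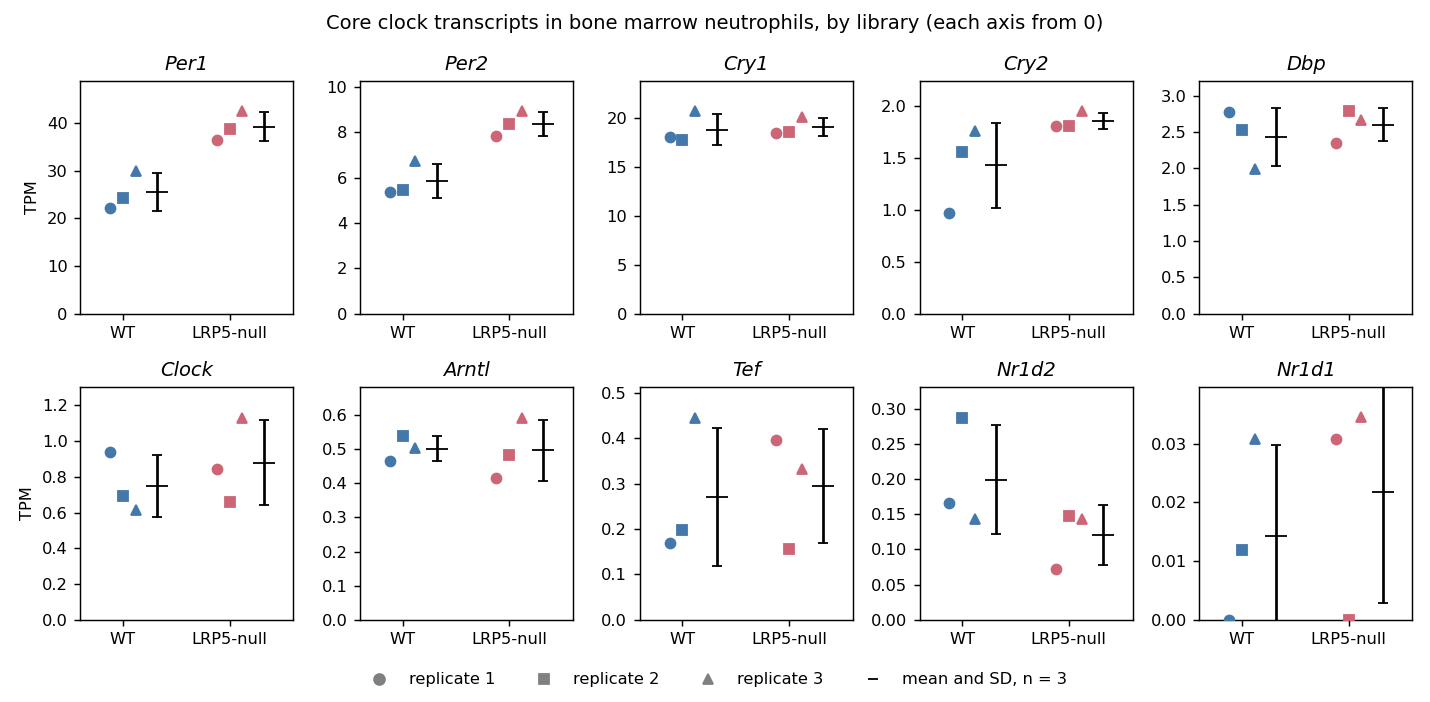
TPM of each of the 10 clock genes by library (vertical axes, each from 0), with WT in blue and LRP5-null in red, the symbol marking the replicate, and black bars giving mean and SD (n = 3 libraries, bars cut at 0). Per1 and Per2 separate fully, with WT up to 30.0 and 6.72 TPM and LRP5-null from 36.5 and 7.84 TPM, while Cry1, Dbp and all 5 genes of the lower row overlap.

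The PER proteins are the inhibitory partners that carry the repressor complex into the nucleus. Per1, on chromosome 11 (chr11:68908719-68923462 of NCBIM37, plus strand), was at 22.2, 24.3 and 30.0 TPM in WT replicates 1 to 3 and at 36.5, 38.6 and 42.4 TPM in LRP5-null replicates 1 to 3. All LRP5-null values lay above all WT values, and WT replicate 3 was the nearest to them. The means were 25.5 ± 4.04 and 39.2 ± 3.0 TPM (SD, n = 3 each), a ratio of 1.54. The log2 fold change was 0.61 (standard error 0.12, 95% interval 0.33 to 0.89), and the adjusted p of 0.0693 from limma missed the threshold. Per1 was in the upper part of the genes tested by level, above 73.4% of them.

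Per2 (chr1:93312561-93355907, minus strand) was less abundant per length than Per1. It was at 5.35, 5.45 and 6.72 TPM in the WT libraries and at 7.84, 8.34 and 8.92 TPM in the LRP5-null libraries. The groups again did not overlap, and WT replicate 3 was again the highest of its group. The means were 5.84 ± 0.77 and 8.37 ± 0.54 TPM (SD, n = 3 each), a ratio of 1.43, and the log2 fold change was 0.46 (standard error 0.10, 95% interval 0.22 to 0.69; adjusted p = 0.0892 from limma). An exact permutation test, two-sided, gave p = 0.1 for Per1 and for Per2, the lowest value possible with groups of this size. Per3, the remaining PER gene, was below the filter at 0.198, 0.174 and 0.177 TPM in WT and 0.241, 0.233 and 0.279 TPM in LRP5-null libraries. Its groups also did not overlap, with an adjusted p of 0.242 in the limma fit without the filter. The share of genes under the filter without overlap was not taken.

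The CRY proteins bind PER and are the stronger repressors of BMAL1 and CLOCK. Cry1 (chr10:84594447-84647799, minus strand) was at 18.1, 17.8 and 20.7 TPM in WT and 18.5, 18.6 and 20.1 TPM in LRP5-null libraries. The groups overlapped, and the highest value of all was WT replicate 3. The means were 18.8 ± 1.61 and 19.1 ± 0.91 TPM (SD, n = 3 each), and the log2 fold change was 0.02 with a 95% interval of -0.18 to 0.22 (adjusted p = 0.903 from limma).

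Cry2 (chr2:92243803-92274200, minus strand) was low, at 0.97, 1.56 and 1.76 TPM in WT and 1.81, 1.81 and 1.95 TPM in LRP5-null libraries. The groups did not overlap, but WT replicates 2 and 3 came close to the LRP5-null values, and WT replicate 1 was far below them. The log2 fold change of 0.25 (standard error 0.13, 95% interval -0.059 to 0.55) did not pass the test (adjusted p = 0.294 from limma). It was 0.10 without WT replicate 1 and 0.048 against WT replicate 3 alone. The annotation places a lincRNA, D930015M05Rik, on the opposite strand over 23417 bases of Cry2. The deposited read summary lists 99.37% to 99.51% of reads in the correct strand. Whether the TPM values were counted by strand is not given in the sources used here, so reads of the pair may not be told apart in them.

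The activators were scarce. Arntl, whose product BMAL1 is the one partner the loop cannot run without, was at 0.46, 0.54 and 0.50 TPM in WT and 0.41, 0.48 and 0.59 TPM in LRP5-null libraries. Clock was at 0.94, 0.69 and 0.61 TPM in WT and 0.84, 0.66 and 1.13 TPM in LRP5-null libraries. The groups overlapped in both genes, although for Clock LRP5-null replicate 3 was above all WT libraries and WT replicate 3 below all LRP5-null libraries. The means of Arntl were 0.502 ± 0.037 and 0.496 ± 0.090 TPM and those of Clock 0.748 ± 0.17 and 0.879 ± 0.24 TPM (SD, n = 3 each). The exact permutation test, two-sided, gave p = 1 for Arntl and p = 0.6 for Clock.

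The REV-ERB receptors, which repress Arntl, were close to absent from these libraries. Nr1d1 was listed at 0, 0.012 and 0.031 TPM in WT and 0.031, 0 and 0.035 TPM in LRP5-null libraries, and no fold is given. Nr1d2 was at 0.17, 0.29 and 0.14 TPM in WT and 0.072, 0.15 and 0.14 TPM in LRP5-null libraries. The ranges overlapped, and the means of 0.199 ± 0.077 and 0.121 ± 0.042 TPM (SD, n = 3 each) gave p = 0.2 in the exact permutation test, two-sided. Nr1d1 overlaps Thra on the opposite strand over 1075 bases.

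Dbp and Tef are PAR bZIP factors that drive outputs of the clock through D-boxes, and Dbp is among the most strongly cycling transcripts of many tissues. Dbp (chr7:52960458-52965525, plus strand) was at 2.78, 2.52 and 1.99 TPM in WT and 2.35, 2.78 and 2.67 TPM in LRP5-null libraries. The groups overlapped over most of their range. The means were 2.43 ± 0.40 and 2.60 ± 0.23 TPM (SD, n = 3 each), with a log2 fold change of 0.07 and a 95% interval of -0.18 to 0.33 (adjusted p = 0.706 from limma). Against WT replicate 3 alone it was 0.27. Tef was at 0.17, 0.20 and 0.45 TPM in WT and 0.40, 0.16 and 0.33 TPM in LRP5-null libraries, also overlapping (exact permutation test, two-sided, p = 1). Dbp shares 689 bases with Sphk2 and Tef 193 bases with the lincRNA Gm17597, both on the opposite strand. The 5 genes under the filter had adjusted p-values of 0.475 to 0.966 in the limma fit without it.

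Ratios of 2 transcripts within a library do not depend on the factor by which the library was scaled. Per1 to Cry1 was 1.23, 1.37 and 1.45 in WT and 1.97, 2.07 and 2.10 in LRP5-null libraries. Per2 to Cry1 was 0.296, 0.307 and 0.325 in WT and 0.424, 0.448 and 0.443 in LRP5-null libraries. Both ratios separated the groups, and the spread within each group was narrower relative to its mean than that of Per1 or Per2 alone. On the log2 scale Per1 to Cry1 was 0.61 higher and Per2 to Cry1 0.50 higher in the LRP5-null libraries (exact permutation test, two-sided, p = 0.1 for each). As Cry1 itself hardly differed between the groups (log2 fold change 0.02), these ratios largely restate the differences of Per1 and Per2. Per1 to Per2 was 4.14, 4.45 and 4.46 in WT and 4.65, 4.63 and 4.75 in LRP5-null libraries, a log2 difference of 0.11. Dbp to Arntl, a pair that peaks at opposite times of day, was 5.99, 4.68 and 3.95 in WT and 5.67, 5.77 and 4.51 in LRP5-null libraries, and the groups overlapped (log2 difference 0.14).

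**Figure D2:**
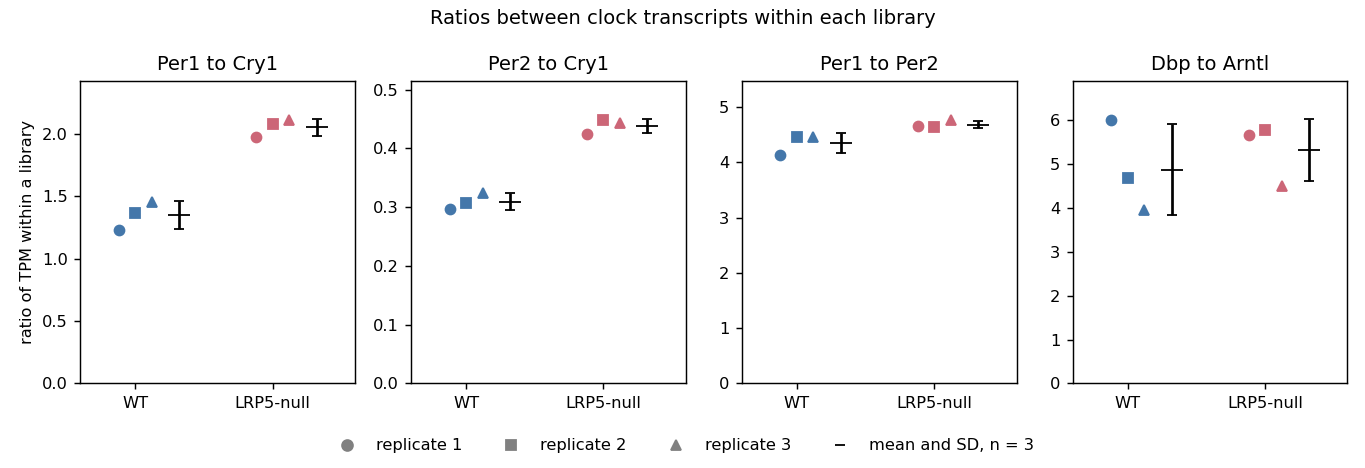
Ratio of TPM between 2 clock transcripts within each library (vertical axes, each from 0), with WT in blue and LRP5-null in red, the symbol marking the replicate, and black bars giving mean and SD (n = 3). Per1 to Cry1 lies at 1.23 to 1.45 in WT and 1.97 to 2.10 in LRP5-null libraries, and Dbp to Arntl overlaps.

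Per1 and Per2 also moved together from library to library. Pearson's r between them on log2(TPM + 1) was 0.996 over the 6 libraries and 0.978 after each group's mean was taken out. Per1 and Cry1 had 0.501 over the libraries and 0.926 after the group means were taken out, and Per1 and Dbp 0.025 and -0.66. These are descriptions over 6 libraries whose values share one scaling. WT replicate 3 also differed from WT replicates 1 and 2 in its trend of expression with GC content, given below. GC content was 59.4% for Per1, 54.4% for Per2, 51.5% for Cry1 and 61.7% for Dbp. The part of that trend in these correlations was not tested. The genes whose level followed Per1 most closely were Runx2os1 (r = 0.9994), a transcript antisense to Runx2, Tcf3 (0.9986), which encodes an E protein transcription factor, and Kremen1 (0.9983), which encodes a membrane receptor for Dickkopf proteins. Their log2 fold changes were 0.32, 0.40 and 0.47. The most opposed were Pdia3 (r = -0.9948), which encodes a disulfide isomerase of the endoplasmic reticulum, Rars (-0.9934), which encodes an arginyl-tRNA synthetase, and Mindy3 (-0.9931), which encodes a deubiquitinase. GC content was 61.0% for Tcf3 and 55.1% for Kremen1, against 46.9% for Pdia3, 45.9% for Rars and 41.9% for Mindy3, with no value for Runx2os1. The genes most like and most opposed to Per1 are the extremes of all 9775 genes tested, and the difference between the groups enters each r. For them r after the group means were taken out was not computed.

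No gene of a wider clock list passed the test. Of its 28 genes, the 10 included, 15 passed the filter, 12 with a positive and 3 with a negative log2 fold change, with a median of 0.14. By limma 0 reached an adjusted p under 0.05, 3 (Per1, Per2 and Btrc) had an unadjusted p under 0.05, all higher, where 23.5% of all genes tested passed in either direction, and 4 (Per1, Per2, Cry2 and Btrc) had LRP5-null libraries above WT without overlap, where 17.4% of all genes did. The other 11 overlapped. Btrc, which encodes an F-box protein of the ligase that marks PER for destruction, was at 5.52, 5.17 and 5.90 TPM in WT and 6.18, 6.80 and 6.44 TPM in LRP5-null libraries (log2 fold change 0.20, standard error 0.080, adjusted p = 0.201 from limma). Nfil3, a repressor at D-boxes and the most abundant of the list, was at 65.7 ± 6.04 TPM in WT and 74.8 ± 3.0 TPM in LRP5-null libraries (SD, n = 3 each; adjusted p = 0.227 from limma). The casein kinase genes Csnk1d and Csnk1e, whose products phosphorylate PER, had adjusted p-values of 0.458 and 0.708 from limma.

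Below the filter, Arntl2, a paralog of Arntl, was at 0.0095, 0.0054 and 0.0088 TPM in WT and 0.044, 0.16 and 0.14 TPM in LRP5-null libraries. Ciart, which encodes a further repressor of BMAL1 and CLOCK, was at 0.25, 0.29 and 0.27 TPM in WT and 0.63, 1.16 and 0.29 TPM in LRP5-null libraries. Neither pair of groups overlapped, although LRP5-null replicate 3 was barely above the WT values for Ciart, and the adjusted p-values in the limma fit without the filter were 0.229 and 0.403. Both genes and Per3 were among 13 genes of the list under the filter. The share of all such low genes without overlap was not taken, and the WT values of Arntl2 were close to 0. Of the genes for activators of Arntl, Rorb was listed at 0 in all libraries and Rora did not exceed 0.0084 TPM.

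**Figure D3:**
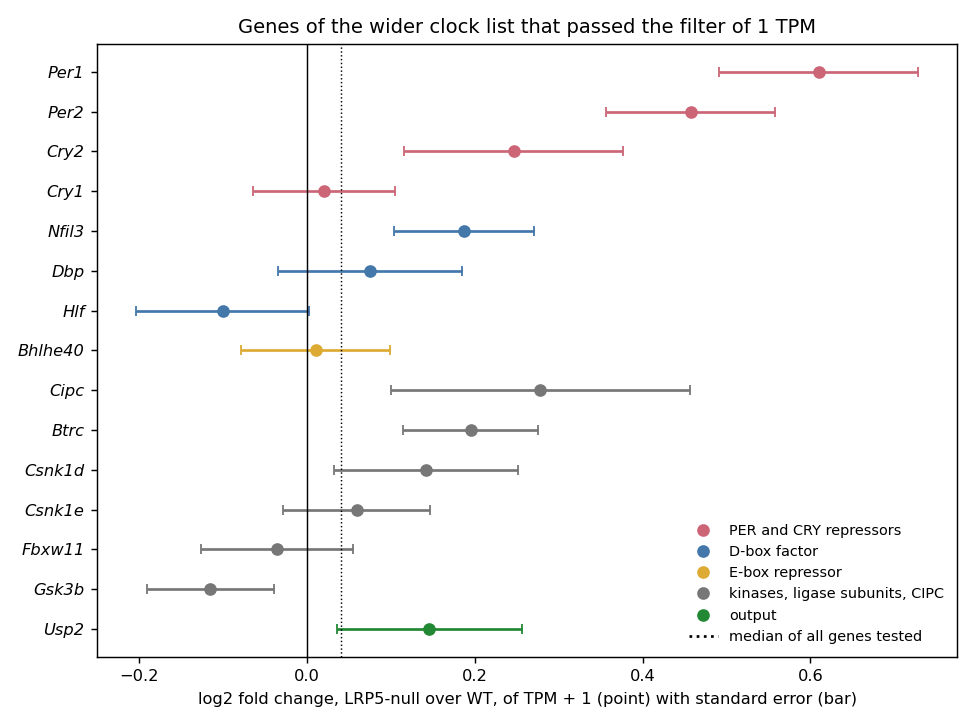
Log2 fold change of TPM + 1, LRP5-null over WT (horizontal axis), for the 15 genes of the wider clock list that passed the filter, with bars of 1 standard error, colours for the role in the clock and a dotted line at the median of all genes tested (0.04). Per1 (0.61) and Per2 (0.46) have the highest points, and the bars of Cipc (0.28) and Cry2 (0.25) reach into that of Per2.

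Of 3 further genes known to follow the time of day in neutrophils, all had a negative log2 fold change. In limma 1 of them reached an adjusted p under 0.05, where 0.532% of all genes tested did in either direction. CXCR4 and CXCR2 are receptors that hold neutrophils in marrow or draw them out, and CXCL2 is a chemokine that neutrophils make under control of BMAL1. All 3 had every LRP5-null library below every WT library, against 12.3% of all genes tested, and Cxcl2 passed the test. Cxcl2 was at 348, 348 and 320 TPM in WT and 248, 230 and 247 TPM in LRP5-null libraries, and it fell by 0.48 on the log2 scale (standard error 0.067, adjusted p = 0.0371 from limma). The adjusted p of Cxcl2 ranged from 0.0103 to 0.178 over 18 alternative settings and was over the threshold in 11 of them, among these the omission of any 1 library other than WT replicate 3. Cxcr2 was at 776 ± 29.5 and 701 ± 32.7 TPM and Cxcr4 at 1496 ± 5.61 and 1423 ± 17.0 TPM (SD, n = 3 each), with log2 fold changes of -0.15 and -0.07.

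Glucocorticoids rise and fall daily and act on Per1 directly, so genes they induce were set beside it. Of 6 such genes, 0 reached an adjusted p under 0.05 in limma, and 2 (Tsc22d3 and Per1 itself) had an unadjusted p under 0.05, both higher, where 23.5% of all genes tested did in either direction. Groups did not overlap in 4, with LRP5-null libraries above WT in Tsc22d3 and Per1 (17.4% of all genes) and below WT in Klf9 and Dusp1 (12.3% of all genes). Tsc22d3, which encodes GILZ, a mediator of glucocorticoid action, was at 81.0, 85.1 and 88.3 TPM in WT and 113, 111 and 117 TPM in LRP5-null libraries. The groups were wide apart, and the log2 fold change was 0.42 (standard error 0.065, adjusted p = 0.0507 from limma). Over 18 alternative settings its adjusted p ranged from 0.0117, without WT replicate 3, to 0.221, and was under the threshold in 6. Fkbp5 and Sgk1, both widely used as glucocorticoid targets, had log2 fold changes of 0.10 and 0.03 with overlapping groups, and Klf9 and Dusp1 of -0.18 and -0.09. The list did not move in one direction.

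Body temperature also cycles daily, and the cold-inducible RNA binding proteins Cirbp and Rbm3 follow it inversely. Cirbp was at 12.7, 19.5 and 19.3 TPM in WT and 22.7, 24.2 and 23.0 TPM in LRP5-null libraries. The groups did not overlap, and WT replicate 1 lay far below the other WT libraries (log2 fold change 0.44, standard error 0.16, adjusted p = 0.161 from limma, and 0.25 without WT replicate 1). Rbm3 overlapped, with a log2 fold change of 0.08, which was 0.24 against WT replicate 3 alone.

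**Figure D4:**
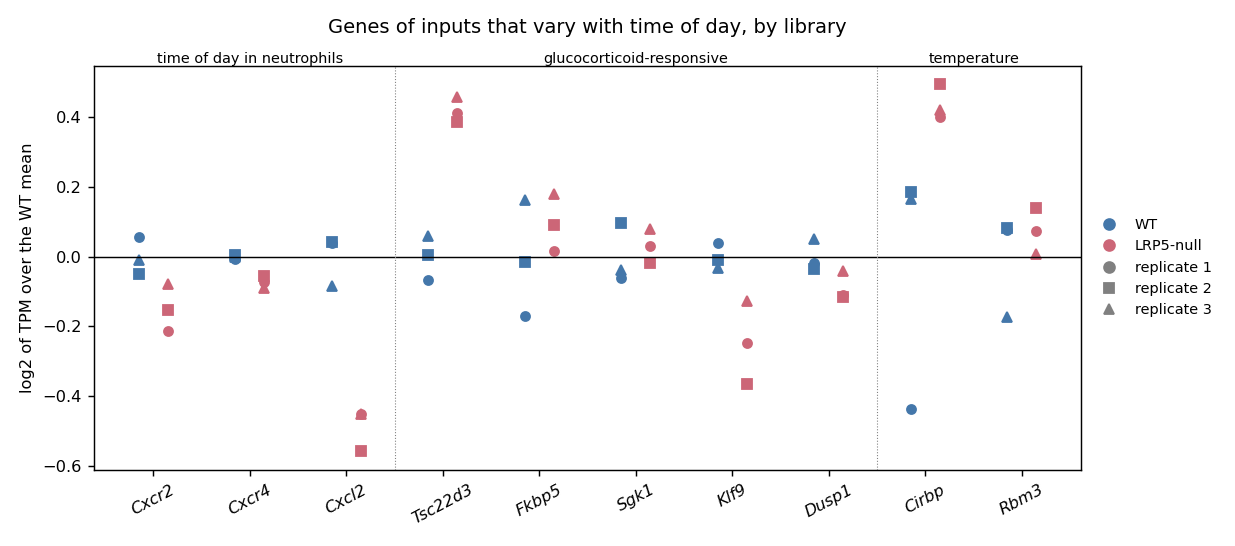
Log2 of TPM over the WT mean (vertical axis) for genes tied to the time of day in neutrophils, to glucocorticoids and to temperature, with WT in blue, LRP5-null in red and the symbol marking the replicate. Cxcl2 lies below the WT libraries and Tsc22d3 and Cirbp above them, while Fkbp5, Sgk1 and Rbm3 overlap.

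Several properties differed between the libraries, and some of them separated the groups. WT replicates 1 and 2 had ribosomal shares of 1.20% and 1.30% of reads, well under the 3.30% of WT replicate 3 and the 2.69% to 2.98% of the LRP5-null libraries. The trend of expression with GC content had the same split, with Spearman's rho over genes of -0.61 and -0.43 in WT replicates 1 and 2 and 0.33 to 0.44 in the other 4 libraries. The intronic share was 7.78% to 9.0% in WT and 10.62% to 11.23% in LRP5-null libraries. The share of reads in coding sequence and untranslated regions was 83.84% to 87.03% in WT and 81.85% to 82.41% in LRP5-null libraries. The share in the correct strand was 99.43% to 99.51% in WT and 99.37% to 99.41% in LRP5-null libraries. The groups did not overlap in the intronic, coding or strand share. Against WT replicate 3 alone, whose ribosomal share and GC trend resembled those of the LRP5-null libraries, the log2 fold change of Per1 was 0.37 (95% interval 0.12 to 0.63, adjusted p = 0.227 from limma) and that of Per2 0.28 (0.026 to 0.53, adjusted p = 0.288). The lone library was assumed to vary like the others. With the ribosomal share as a covariate they were 0.44 and 0.33, and with the trends on GC content and length removed 0.46 and 0.32, where both passed the test (adjusted p = 0.0154 and 0.0286 from limma). Without WT replicate 3 both passed as well, with log2 fold changes of 0.73 and 0.55 (adjusted p = 0.0105 and 0.0131 from limma). Far more genes passed in these 2 fits, 396 of 8769 with the trends removed and 1920 of 9775 without WT replicate 3. The latter fit keeps only WT replicates 1 and 2, whose ribosomal share and GC trend were unlike those of the LRP5-null libraries.

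**Figure D5:**
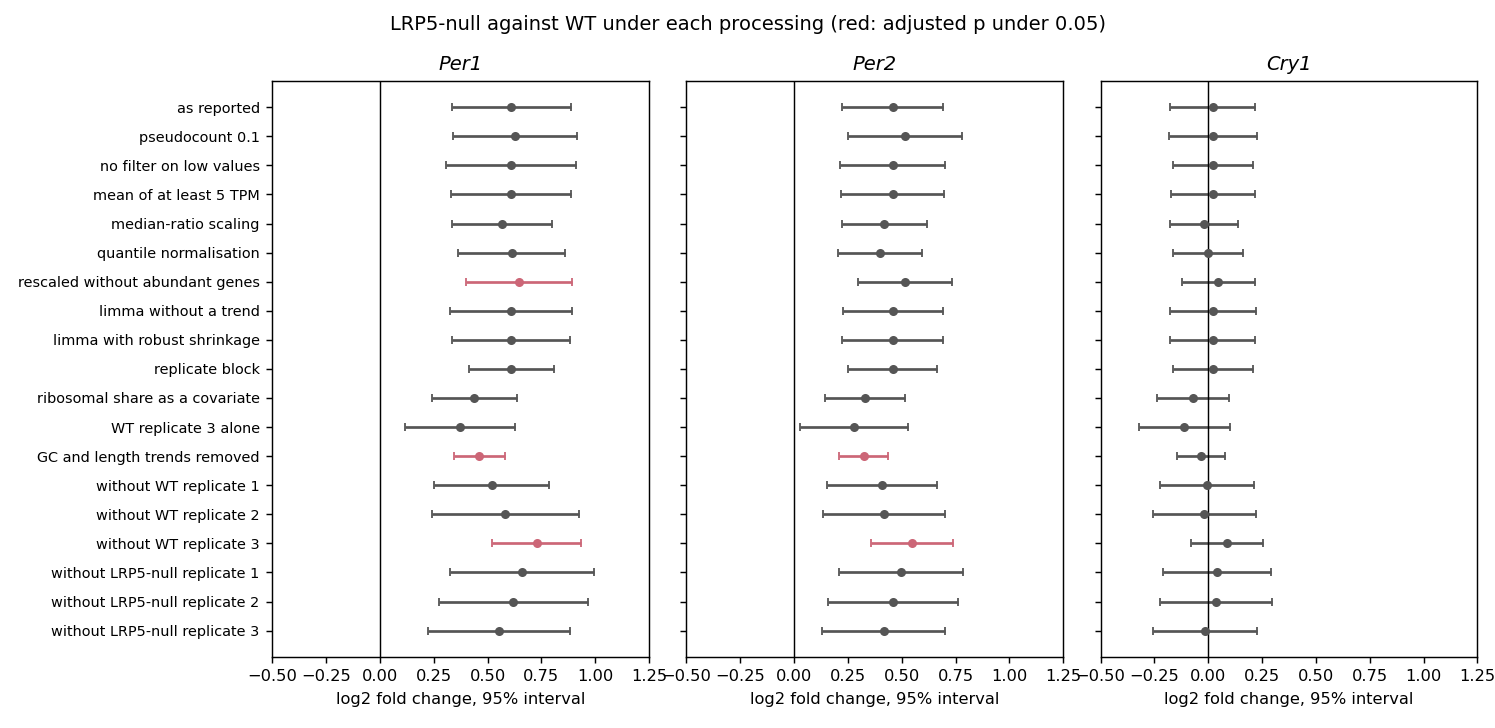
Log2 fold change of Per1, Per2 and Cry1, LRP5-null over WT (horizontal axes), with 95% intervals under each processing (rows), in red where the adjusted p was under 0.05. Per1 stays between 0.37 and 0.73 and Per2 between 0.28 and 0.55 with every interval above 0, and Cry1 lies on both sides of 0.

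Neutrophil markers dominated the libraries, with a summed level of 318602 to 370187 TPM in WT and 350402 to 374018 TPM in LRP5-null libraries over 9 rows, nearly all of it S100a8 and S100a9, and the sums overlapped. S100a9 was above WT in every LRP5-null library (adjusted p = 0.114 from limma), and Cxcr2 and Mmp8 were below, Mmp8 at 3807 ± 275 TPM in WT and 2857 ± 160 TPM in LRP5-null libraries (SD, n = 3 each; log2 fold change -0.41, adjusted p = 0.0648 from limma). Markers of immature neutrophils summed to 29.0 to 30.1 TPM in WT and 37.0 to 38.0 TPM in LRP5-null libraries without overlap, with 3 of 5 genes (Elane, Ctsg and Ms4a3) above WT in every library, against 17.4% of all genes tested, and 0 of 5 called (lowest adjusted p = 0.109 from limma, 3 with an unadjusted p under 0.05). The sum over T and NK cell markers was 11.2 to 13.0 and 15.4 to 16.8 TPM, nearly all of it Cd3d, while Cd3e was at most 0.18 TPM. Markers of eosinophils, basophils and mast cells summed to 9.68 to 12.2 and 12.8 to 14.1 TPM, with 1 of the 3 tested called (Prg2, higher, adjusted p = 0.0341 from limma), against 0.532% of all genes, and Epx at most 0.14 TPM. Most of that sum was Siglecf, with means of 8.27 TPM in WT and 8.47 TPM in LRP5-null libraries. Siglecf and Mcpt8, the other genes tested, had overlapping groups, with log2 fold changes of 0.03 and -0.05. Monocyte and macrophage (44.4 to 55.9 and 53.4 to 60.7 TPM), B cell (10.4 to 11.8 and 10.2 to 11.1 TPM) and erythroid markers (45.3 to 53.6 and 39.1 to 49.5 TPM) overlapped in their sums. Among their genes, Adgre1 was above WT in every LRP5-null library (17.4% of all genes tested, adjusted p = 0.103 from limma). Hba-a1 was below WT in every LRP5-null library (12.3% of all genes tested, adjusted p = 0.155 from limma). The other genes tested in these lists overlapped. The part of these cells in the levels of Per1 and Per2 was not tested.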

How the data were processed

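RNA-seq of primary bone marrow neutrophils was taken from 3 WT and 3 LRP5-null libraries. The labels name a Percoll gradient and an mRNA kit, and the methods a sort of CD11b+Ly6G+ cells and a stranded total RNA kit. The authors aligned reads to mm9 with a pipeline for which DESeq2 is named, and deposited expression as TPM, scaled to one total in each library. The tool behind the TPM values is not given in the sources used here. A read summary deposited by the authors holds read counts per library, shares in percent, a ratio for coverage bias, a score for how coverage varied, and sizes in bases, and its counts and percent columns were used.

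The 10 genes and all lists were chosen with earlier results of these data known. The 9775 genes whose mean reached 1 TPM were compared, LRP5-null minus WT, by limma (version 3.58.1, R version 4.3.3) after log2(TPM + 1). The variance was allowed to follow the mean, no covariate entered, and p-values were adjusted by Benjamini and Hochberg with 0.05 as threshold. Separate animals are not stated for the replicates, so p-values measure the spread between these libraries. Exact permutation tests were made in Python 3.11.15 with scipy 1.17.1. Positions and overlaps came from GENCODE M1 on NCBIM37, matched on gene symbols. Length and GC content came from its longest protein-coding transcript of each gene, matched on identifiers without version (the deposited versions are later). They covered 89.7% of genes tested.

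Named were the 10 genes, those of the wider clock list with an unadjusted p under 0.05 or groups without overlap, the genes of the time-of-day, glucocorticoid and temperature lists, and the 3 genes most and least correlated with the clock gene of smallest p. Nfil3, Csnk1d, Csnk1e, Rora, Rorb and Cipc of the wider list, and genes of marker lists, were named after their values were seen. A few genes of the wider and time-of-day lists are not reported here and enter no count of those lists. Alternatives were a pseudocount of 0.1, no filter or one at 5 TPM, median-ratio and quantile scaling, rescaling after mitochondrial and the 20 most abundant genes were dropped, limma with no trend, limma with robust shrinkage, omission of single libraries, a block for the replicate number, the ribosomal share as a covariate, WT replicate 3 alone, and removal of GC and length trends (lowess, span 0.3).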

Additional observations from a re-analysis of the deposited data

How the results depend on the processing

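Per1 and Per2 kept their direction in all 18 alternatives, with log2 fold changes of 0.37 to 0.73 and 0.28 to 0.55 and an unadjusted p under 0.05 in limma in each, and adjusted p-values of 0.0105 to 0.262 and 0.0131 to 0.299. Over all genes, 52 passed the adjusted threshold, 26 in each direction. This count was 3 without a filter, 29 with a filter at 5 TPM, 96 after rescaling without the most abundant genes (69 higher and 27 lower), 4 with the replicate block, 6 with the ribosomal share as a covariate, 6 with WT replicate 3 alone and 396 once trends on GC content and length were removed (153 higher and 243 lower), a fit that also dropped genes without GC content and tested 8769. It ranged from 2 to 1920 with 1 library left out, at 1920 without WT replicate 3, 18 without WT replicate 1, 15 without LRP5-null replicate 2, 3 without WT replicate 2 and 2 without LRP5-null replicate 1 or 3. Of the 10 clock genes, 0 were called, against 1 (Per1) after rescaling, 2 (Per1 and Per2) once trends on GC content and length were removed, and 0 to 2 with 1 library left out. Of the wider list 0 were called, against 1 and 2 in the same settings and 0 to 3 with 1 library left out, where Nfil3 was the third without WT replicate 3.

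The log2 fold change of Cry1, 0.02 as reported, was -0.0214 with median-ratio scaling, -0.00040 with quantile normalisation, -0.072 with the ribosomal share, -0.11 with WT replicate 3 alone, -0.034 with the trends removed, and -0.0186 to 0.0865 with 1 library left out. That of Dbp was -0.0246 (quantile) and -0.0668 (trends removed), and -0.021 to 0.149 with 1 library left out, but 0.197 with the ribosomal share and 0.267 with WT replicate 3 alone. Fkbp5 was -0.0218 with the ribosomal share and -0.0663 with WT replicate 3 alone, Sgk1 -0.0116 with median-ratio scaling, Dusp1 0.0111 with quantile normalisation, and Rbm3 -0.0046 to 0.121 with 1 library left out (below 0 without WT replicate 3), but 0.191 with the ribosomal share, 0.237 with the trends removed and 0.244 with WT replicate 3 alone. Cry2, 0.25 as reported, was 0.048 to 0.391 and Cirbp, 0.44 as reported, 0.251 to 0.544 over all alternatives. The cause of these shifts was not tested. Median-ratio scaling moved the median of all genes from 0.04 to 0.0032.

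Whether the shared replicate numbers pair the libraries is not stated in the labels or methods. Deviations of same-numbered libraries correlated at 0.229, -0.0075 and 0.131. For replicates 1 and 3 these were the highest values of the libraries concerned, while WT replicate 2 was closest to LRP5-null replicate 3 (0.022). With so few libraries this check cannot settle a pairing. With the replicate block Per1 and Per2 stayed over the threshold (adjusted p = 0.108 and 0.128 from limma).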
